A study of Mus musculus with 8 samples.

Results

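The subject is a set of 10 genes of the cytoskeleton and cell surface, measured by RNA sequencing. The labels call the cells C2C12, a myoblast line of the mouse. The 10 genes are the intermediate filament genes Vim, Des and Nes, the beta tubulin genes Tubb3, Tubb2a and Tubb2b, the stathmin genes Stmn1 and Stmn2, the microtubule-associated gene Map1b and the adhesion receptor gene Mcam. The rows were found by gene symbol, 1 Ensembl gene for each symbol, among the 52338 genes of one deposited table and the 52139 genes of the other. The genes were selected on their levels in the 8 libraries and on their differences within each table. All such values are therefore given as a description, and no test of them is reported.

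The first table holds 3 libraries of cells given ginsenoside Re, a saponin of ginseng, and 3 libraries of cells given DMSO, the solvent. The other holds 1 library for ginseng berries concentrate (GBC) and 1 DMSO library of its own. All are labelled wild type, the labels state neither dose nor duration, and nothing in them says whether replicates were separate cultures. Levels are in TPM, the share of transcripts after scaling by gene length and library, so that genes can be compared within a library. The depth of the libraries is unknown. The TPM of all listed genes summed to 704657 to 743269 in the Re libraries and 642180 to 716589 in their DMSO libraries, and to 479938 in the GBC library and 403442 in its DMSO library. Each table was taken as normalised on its own, so levels set across them only describe the tables.

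Intermediate filaments are rope-like polymers that give a cell mechanical strength. Vimentin, the product of Vim, is the filament of mesenchymal cells, desmin (Des) is that of muscle, and nestin (Nes) is a large partner protein of dividing progenitors, of neural tissue and of muscle, that assembles with vimentin or desmin. Microtubules are built from dimers of alpha and beta tubulin. The isotype encoded by Tubb3 is best known from neurons, where Tubb2a and Tubb2b are abundant too. Stathmins bind free tubulin dimers and promote microtubule shortening. Stmn1 is found in many dividing cells, and Stmn2 is known as a neuronal growth protein. Map1b encodes a protein that binds and stabilises microtubules in growing axons, and Mcam (CD146) an immunoglobulin-family receptor of endothelium, pericytes and other cells.

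Promoter sequences are shown for 5 of the genes because their levels fell into different patterns: Nes and Tubb3 were near 0 in one table and abundant in the other, Des was low in one and abundant in the other, and Vim and Tubb2a were abundant in both. RefSeq promoter entries on GRCm38.p6 were matched for 7 of the 10 genes, leaving Tubb2b, Stmn1 and Stmn2 without. Each run is the 250 bases before the annotated start, 5′ to 3′ on the gene's strand. Capitals mark matches to CANNTG, the E-box that MyoD and related factors bind, and to TATAA, the core of a TATA box, on either strand.
Nes (chr3:87970843-87971092, plus strand): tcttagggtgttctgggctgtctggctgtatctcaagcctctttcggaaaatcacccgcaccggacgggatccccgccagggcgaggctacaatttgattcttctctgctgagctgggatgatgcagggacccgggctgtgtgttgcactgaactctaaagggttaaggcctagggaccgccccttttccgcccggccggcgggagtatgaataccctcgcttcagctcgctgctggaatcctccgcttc
Tubb3 (chr8:123411303-123411552, plus strand): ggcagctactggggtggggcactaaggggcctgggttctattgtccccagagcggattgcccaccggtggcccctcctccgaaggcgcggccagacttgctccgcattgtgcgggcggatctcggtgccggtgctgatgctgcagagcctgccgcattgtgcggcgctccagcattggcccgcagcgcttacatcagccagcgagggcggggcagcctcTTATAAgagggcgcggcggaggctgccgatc
Des (chr1:75360042-75360291, plus strand): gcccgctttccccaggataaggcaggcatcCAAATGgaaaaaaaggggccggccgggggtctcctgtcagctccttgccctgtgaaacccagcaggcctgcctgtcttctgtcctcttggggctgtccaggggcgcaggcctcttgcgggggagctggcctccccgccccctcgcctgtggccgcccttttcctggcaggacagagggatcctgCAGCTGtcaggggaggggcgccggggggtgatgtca
Vim (chr2:13574061-13574310, plus strand): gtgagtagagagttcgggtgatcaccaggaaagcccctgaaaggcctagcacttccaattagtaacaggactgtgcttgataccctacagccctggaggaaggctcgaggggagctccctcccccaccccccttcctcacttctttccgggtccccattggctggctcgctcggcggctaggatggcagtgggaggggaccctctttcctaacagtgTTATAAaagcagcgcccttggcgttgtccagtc
Tubb2a (chr13:34078009-34078258, minus strand): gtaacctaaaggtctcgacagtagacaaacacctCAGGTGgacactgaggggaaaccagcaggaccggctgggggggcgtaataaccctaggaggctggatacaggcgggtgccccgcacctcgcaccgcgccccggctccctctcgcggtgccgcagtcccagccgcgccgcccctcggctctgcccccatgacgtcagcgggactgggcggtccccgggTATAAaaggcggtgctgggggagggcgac

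The promoters differed in these letters. The Des window held 2 E-box matches, the nearer starting 36 bases before the start, while the Nes, Tubb3 and Vim windows held none and those of Tubb2a, Map1b and Mcam held 1 each. Over all 32851 RefSeq promoter windows of this length, 66.2% held at least 1 such match. TATAA was present in Vim, starting 32 bases before the start, in Tubb3 at 30 bases, in Tubb2a at 29 bases and in Map1b at 99 bases, and in 22.8% of all windows. The pair of TATAA matches in Vim and in Tubb3 overlap on opposite strands. The GC box GGGCGG was found on either strand in 6 of the 7 windows, all but that of Vim, and in 32.7% of all windows. Mcam held 5 GC boxes. The count of CpG dinucleotides was 25 in Mcam, 22 in Tubb2a, 21 in Tubb3, 19 in Map1b, 15 in Nes, 10 in Des and 8 in Vim, against a median of 6 over all windows. No group of promoters with a shared level pattern shared a motif that the others lacked. Tubb3, near 0 in the GBC table, and Vim, abundant in it, both held TATAA, and Nes held none. The groups held few promoters and rest on the levels that chose the genes, so nothing is read from this.

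All 10 genes had at least 10 TPM in every library of the Re table, and 5 of them were close to 0 in the GBC table. At least 10 TPM in all 6 libraries of the Re table together with under 1 TPM in both libraries of the GBC table was seen for Nes, Tubb3, Tubb2b, Stmn2 and Mcam. Of the 6453 genes at that level in the Re table, 2.15% were so low in the other. Since the levels chose the genes, nothing is read from that contrast. In RNA from whole cultures, fewer cells of a type and less RNA per cell cannot be told apart.

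**Figure D1:**
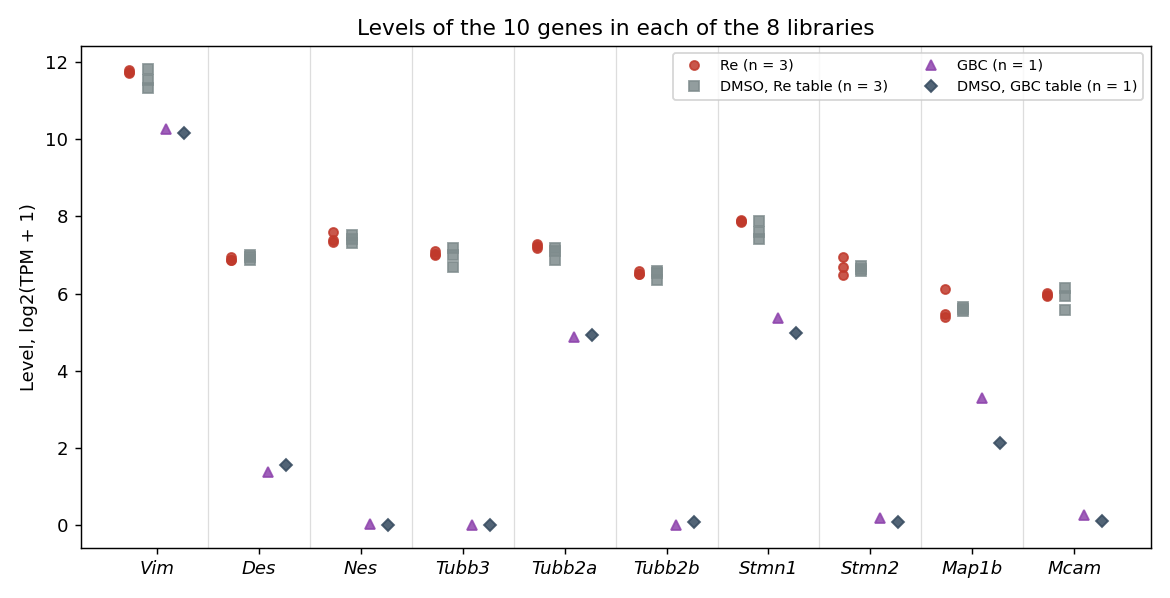
Level of each gene in log2(TPM + 1) (vertical axis) in the 3 Re libraries, the 3 DMSO libraries of the same table, the GBC library and its DMSO library; each point is 1 library. In the Re table all points of the 10 genes lie above 5, while Nes, Tubb3, Tubb2b, Stmn2 and Mcam lie near 0 in the GBC and DMSO libraries of the other table.

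Among the intermediate filament genes, Vim was by far the most abundant. It had 3533, 3395 and 3417 TPM in Re replicates 1 to 3, against 3639, 2584 and 2965 TPM in DMSO replicates 1 to 3. It ranked 13 to 17 among all genes in these libraries. In the other table Vim had 1229 TPM in GBC and 1138 TPM in DMSO, at ranks 41 and 37. Vim was thus among the leading mRNAs of every library, and DMSO replicate 2 was the lowest of the 6 in the Re table.

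Des had 114.9, 123 and 114.9 TPM in the Re libraries, against 127, 116 and 122 TPM in the DMSO libraries. Its spread was the smallest of the 10 genes, with a coefficient of variation of 4.36% over the 6 libraries. It had 1.59 TPM in GBC and 1.92 TPM in DMSO of the other table. Nes had 166, 162 and 193 TPM in the Re libraries, against 181, 157 and 169 TPM in the DMSO libraries. It was listed at 0.02 TPM in GBC and at 0 in DMSO of the other table. Within the Re table the order Vim, Nes, Des held in every library, and in the GBC table Vim was alone at a level above 2 TPM.

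The share of each gene in the summed TPM of 14 cytoplasmic intermediate filament genes does not depend on how a library is scaled. Vim held 92.1% ± 0.446 of that sum in Re and 91.1% ± 0.928 in DMSO (SD, n = 3 each), Nes 4.64% ± 0.459 in Re and 5.08% ± 0.464 in DMSO, and Des 3.15% ± 0.178 in Re and 3.67% ± 0.420 in DMSO. In each of the 3 genes the shares of the groups overlapped. Vim held 99.8% in both GBC and DMSO of the other table. The neurofilament, peripherin, alpha-internexin, synemin, glial and keratin genes of this sum stayed at or under 0.110% each in the Re table.

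The 3 beta tubulin genes lay close together in the Re table. Tubb2a had 148, 154 and 144 TPM in the Re libraries, against 145, 116 and 135.5 TPM in the DMSO libraries. Tubb3 had 128, 126 and 137 TPM in the Re libraries, against 143, 102 and 127 TPM in the DMSO libraries. For both genes DMSO replicate 2 was the lowest library and the groups overlapped. Tubb2b had 94.9, 89.99 and 90.01 TPM in the Re libraries, against 91.8, 81.3 and 95.6 TPM in the DMSO libraries, again with DMSO replicate 2 lowest.

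In the GBC table these 3 genes parted. Tubb2a had 28.3 TPM in GBC and 29.4 TPM in DMSO, Tubb3 was listed at 0 in both libraries, and Tubb2b was listed at 0 in GBC and at 0.05 TPM in DMSO. Tubb2a and Tubb2b are near-identical copies in their coding part. Of the 50-base stretches in the longest coding transcript of GENCODE M21, 49.6% of those in Tubb2a and 39.3% of those in Tubb2b also occur in a transcript of another gene, against 5.81% in Des and none in Tubb3, Vim, Nes, Stmn2, Map1b and Mcam. How reads were divided between Tubb2a and Tubb2b is thus uncertain.

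Within the sum of 8 beta tubulin genes, Tubb5, a widely expressed isotype, held the most. It made up 51.0% ± 0.423 in Re and 51.2% ± 0.331 in DMSO, and 57.2% in GBC and 54.001% in DMSO of the other table. Tubb3 made up 6.67% ± 0.351 in Re and 6.80% ± 0.377 in DMSO, and Tubb2b 4.68% ± 0.144 in Re and 4.93% ± 0.323 in DMSO, with overlapping groups. Tubb2a made up 7.59% ± 0.186 in Re and 7.26% ± 0.059 in DMSO (SD, n = 3 each), and here the 3 Re values lay above the 3 DMSO values, by 0.337 percentage points at the mean. Tubb6, another isotype, was lower in all 3 Re libraries than in the DMSO libraries, at 10.6% ± 0.179 in Re and 10.9% ± 0.106 in DMSO. Tubb2a made up 3.93% in GBC and 4.72% in DMSO of the other table. These shares come from the same libraries as the levels and are a description. Shares within a sum are tied to each other, and in level 15% of all genes had groups without overlap. Nothing is therefore read from the lack of overlap in Tubb2a and Tubb6.

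**Figure D2:**
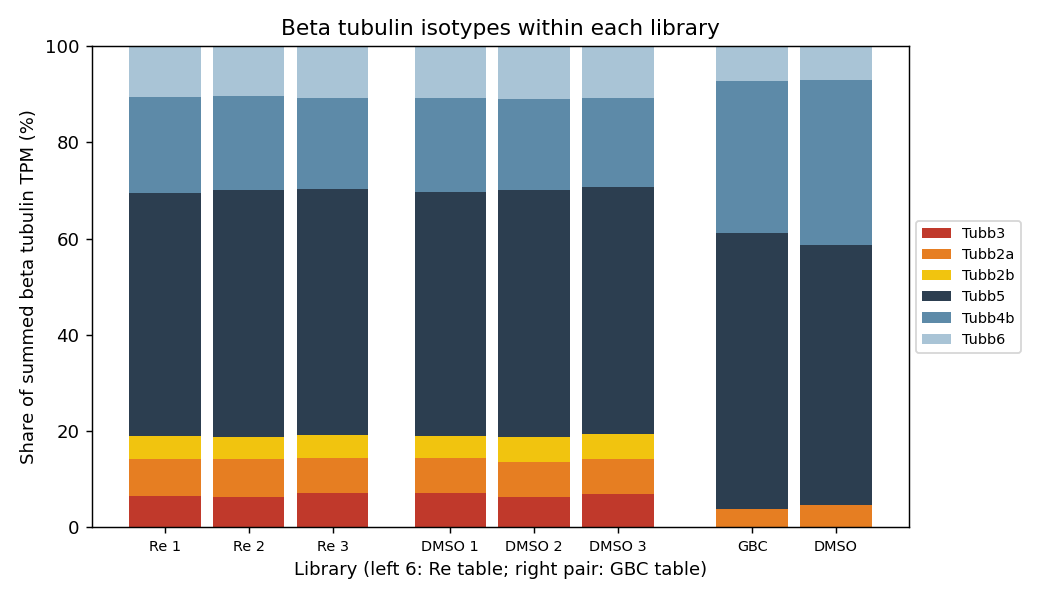
Share of each beta tubulin gene in the summed TPM of the 8 beta tubulin genes (vertical axis, percent) in each library, Re and DMSO of the Re table on the left and GBC and DMSO of the GBC table on the right; Tubb1 and Tubb4a are too low to draw. Tubb3 and Tubb2b form visible segments in the 6 libraries of the Re table and none in the GBC table, where Tubb2a holds 3.93% in GBC and 4.72% in DMSO.

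Of the stathmins, Stmn1 had 229.6, 234 and 237 TPM in the Re libraries, against 233, 169.6 and 191 TPM in the DMSO libraries. The Re values lay close together, and DMSO replicate 1 lay among them. Stmn1 had 40.1 TPM in GBC and 30.2 TPM in DMSO of the GBC table. Of its 50-base stretches 36.5% occur in transcripts of other genes, led by the gene model Gm11223, so its level is less certain than that of Stmn2. Stmn2 had 88.7, 101 and 122 TPM in the Re libraries, against 97.8, 94.9 and 103 TPM in the DMSO libraries. It was listed at 0.14 TPM in GBC and 0.05 TPM in DMSO of the other table. Stmn2 made up 30.7% ± 3.08 of the summed stathmin TPM in Re and 33.5% ± 3.44 in DMSO, with overlapping groups, while Stmn1 made up 99.5% in GBC and 99.6% in DMSO of the other table. Stmn4 made up 0.086% ± 0.030 in Re and 0.010% ± 0.017 in DMSO, without overlap, but at 0.36 TPM or less in the Re table.

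Map1b was the member with the widest spread, with a coefficient of variation of 19.7% over the Re table. It had 43.1, 41.0 and 67.85 TPM in the Re libraries, against 49.4, 45.7 and 47.4 TPM in the DMSO libraries. Re replicate 3 was the highest of all 6 and the other Re libraries were the lowest. Map1b had 8.76 TPM in GBC and 3.39 TPM in DMSO of the other table. Mcam had 63.3, 60.4 and 61.4 TPM in the Re libraries, against 69.5, 46.7 and 60.5 TPM in the DMSO libraries, with both the highest and the lowest value in DMSO. It was listed at 0.20 TPM in GBC and 0.08 TPM in DMSO of the other table.

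By mean TPM over the 6 libraries of the Re table, the order was Vim, Stmn1, Nes, Tubb2a, Tubb3, Des, Stmn2, Tubb2b, Mcam and Map1b. The ranges of neighbours did not overlap between Vim and Stmn1, between Nes and Tubb2a, and between Tubb2b and Mcam. The other neighbours overlapped in range, although Stmn1 exceeded Nes, and Tubb2a exceeded Tubb3, in 6 of 6 libraries. Tubb3 and Des, Des and Stmn2, Stmn2 and Tubb2b, and Mcam and Map1b kept their order in 5 of 6 libraries.

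Differences between the Re and DMSO means of the members ran from -0.05 to 0.25 on the log2(TPM + 1) scale. Their error is given as the unadjusted 95% interval from limma, fitted over all 11967 genes averaging 1 TPM or more, which reached 0.187 to 0.413 to either side. Over all these genes limma called 0 at an adjusted p under 0.05, or 0%, and 745 had an unadjusted p under 0.05. Limma without trend called 0 genes too, and so did limma with trend and robust variances. The groups overlapped in all 10 members, so 0 had no overlap, where 15% of all genes had none, 13.7% with Re higher and 1.27% with Re lower. Since the differences were known when the genes were chosen, nothing is read from these counts.

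The largest difference was that of Stmn1, 0.25 with an interval of -0.03 to 0.52. Vim followed at 0.19 with an interval of -0.12 to 0.50, and Tubb2a at 0.17 with an interval of -0.06 to 0.40. Mcam, Tubb3, Stmn2, Map1b, Nes and Tubb2b differed by 0.08, 0.08, 0.07, 0.05, 0.04 and 0.04. Des was the only member with a lower mean in Re, at -0.05 with an interval of -0.24 to 0.14. The members' median difference was 0.07, beside 0.11 over all genes tested. A mean above that of DMSO was found in 9 of 10 members and in 77.5% of all genes.

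These directions depended on the scaling of the libraries. After median-of-ratios scaling, which brought the median over all genes to 0.0005, Stmn1, Vim and Tubb2a were higher in Re by 0.14, 0.07 and 0.06, and the other 7 members were lower, from -0.03 for Mcam and Tubb3 to -0.16 for Des. DMSO replicate 2 was the lowest of the 6 libraries in 7 of 10 members and in 50.5% of all genes, and after scaling in 5 members, Vim, Tubb3, Tubb2a, Stmn1 and Mcam, and 22.1% of all genes. Without that library Stmn1 differed by 0.14, Tubb2a by 0.08, Vim by 0.07 and Des by -0.08. The members' median was then 0.01 and that over all genes 0.05. The part of this library in the differences beyond these values was not tested.

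**Figure D3:**
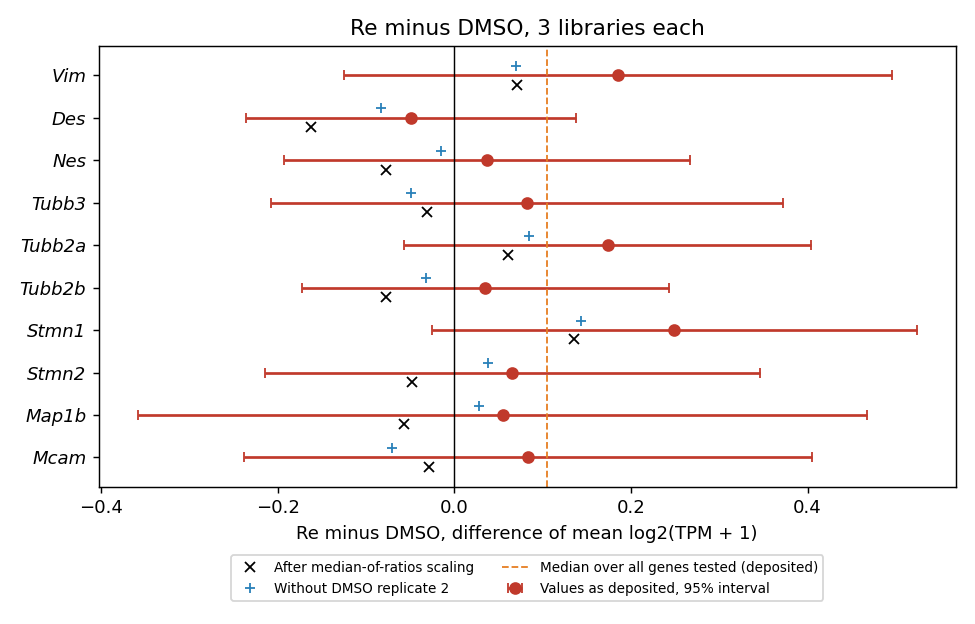
Difference of the mean log2(TPM + 1) between Re and DMSO (horizontal axis, n = 3 each) for each gene, with its 95% interval from limma, beside the difference after median-of-ratios scaling (crosses) and without DMSO replicate 2 (plus signs). The points lie between -0.05 and 0.25, and the scaled differences of 7 genes lie below 0.

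Map1b turned on Re replicate 3. Without that library the difference was -0.17 in place of 0.05. The longest Map1b transcript in GENCODE M21 has 11808 bases, and Re replicate 3 was also the library in which long genes stood highest. Over 621 genes with a transcript of at least 8000 bases, a limit chosen after the values were seen, the median level in Re replicate 3 lay 0.21 above the mean of the 6 libraries, beside 0.10 over all genes. In Re replicate 2 the long genes lay at -0.06 and all genes at 0.04. Map1b itself lay 0.48 above its mean in Re replicate 3 and at -0.16 and -0.23 in Re replicates 1 and 2. The part of transcript length in the Map1b values was not tested.

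**Figure D4:**
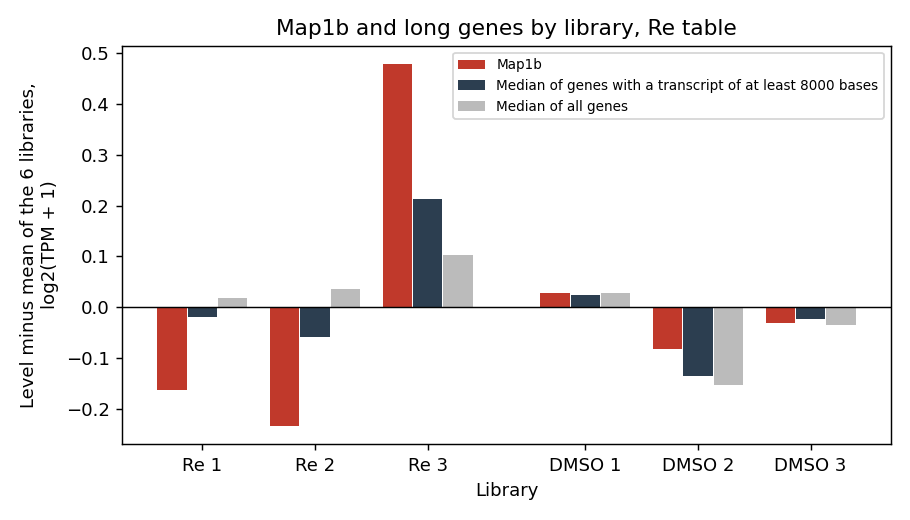
Level minus the mean of the 6 libraries, in log2(TPM + 1) (vertical axis), for Map1b, for the median of 621 genes with a transcript of at least 8000 bases and for the median of all genes, in each Re and DMSO library. Map1b and the long genes are both highest in Re replicate 3, at 0.48 and 0.21.

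For GBC there was 1 library on each side, so differences have no replicate check and no test was made. The minimum, a mean of 5 TPM over the pair, was reached by 4 of the 10 members, Vim, Tubb2a, Stmn1 and Map1b. Among the 6639 such genes the median difference was 0.31 higher in GBC, and 88.9% were higher. Map1b was 1.15 higher in GBC on the log2(TPM + 1) scale, Stmn1 0.40 higher and Vim 0.11 higher, while Tubb2a differed by -0.06. A difference of at least 1 was reached by 1 member, Map1b, and by 5.21% of all genes at that level, 4.97% higher and 0.241% lower. That was 330 genes higher and 16 lower, and 80 higher and 33 lower after median-of-ratios scaling. Relative to the median of all genes, Map1b stood 0.85 higher, Stmn1 0.09 higher, Vim at -0.20 and Tubb2a at -0.36.

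After median-of-ratios scaling, which placed the median of these genes at -0.13, the differences were 0.76 for Map1b, -0.06 for Stmn1, -0.36 for Vim and -0.51 for Tubb2a, so Stmn1 and Vim changed sign. Relative to that median they were 0.89, 0.07, -0.23 and -0.38. The distance of Map1b from the median was thus nearly the same on either scale. Libraries of a single group in the Re table differed by up to 0.71 in Map1b, 0.49 in Vim, 0.46 in Stmn1 and 0.32 in Tubb2a. That spread comes from the other table, where these genes stood at higher levels, so it is set beside the GBC differences as a description only.

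Long genes stood higher in the GBC library too. Over 310 genes with a transcript of at least 8000 bases and averaging 5 TPM or more, the median difference was 0.62, beside 0.31 over all genes with a known length, and 11.3% of them were at least 1 higher. The part of transcript length in the Map1b difference was not tested. The remaining 6 members had at most 1.92 TPM in either library. Des had 1.59 TPM in GBC and 1.92 TPM in DMSO, a difference of -0.17, and the other 5 were at or under 0.20 TPM in both.

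**Figure D5:**
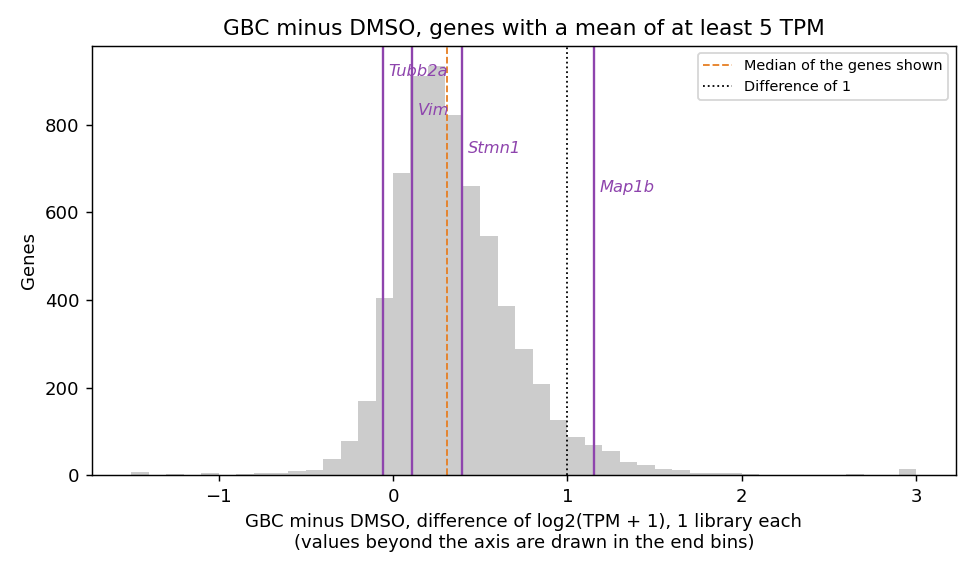
Number of genes (vertical axis) by their difference in log2(TPM + 1) between the GBC and DMSO libraries (horizontal axis), over the 6639 genes averaging 5 TPM or more, with the 4 members at that level marked. Tubb2a and Vim lie left of the median of 0.31, Stmn1 lies close to it at 0.40 and Map1b lies at 1.15, beyond a difference of 1.

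The labels were checked against marker genes of the cell types the members are known from. In the Re table the myoblast regulators Myod1 and Myf5 stood at 9.95 to 13.6 TPM and 32.4 to 34.2 TPM in Re, against 11.9 to 12.6 TPM and 30.2 to 32.7 TPM in DMSO. Cdh15, which encodes M-cadherin, stood at 12.8 to 15.2 TPM in Re and 13.6 to 17.5 TPM in DMSO. In the GBC table Myod1, Myf5 and Cdh15 were listed at 0 in both libraries. Pax7 was listed at 0 in both as well, but it was near 0 in the Re table too, at 0 to 0.02 TPM in Re and 0 to 0.13 TPM in DMSO. The 6 myoblast markers, Des among them, summed to 197.5 to 209 TPM in Re and 197 to 217 TPM in DMSO, and to 1.65 TPM in GBC and 1.97 TPM in its DMSO library. Nothing is read from this sum, since Des, a member chosen on its levels, made up most of it in the Re table. In the GBC table Des was nearly all of it, at 1.59 TPM in GBC and 1.92 TPM in DMSO. The acetylcholine receptor gene Chrna1 had 0.06 TPM in GBC and 0.05 TPM in DMSO of that table. The GBC table thus went against its label in Myod1, Myf5 and Cdh15, all at 0, and it was the table in which Nes, Tubb3, Tubb2b, Stmn2 and Mcam were at or under 0.20 TPM. A difference in the cells and a difference between the experiments cannot be told apart.

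The 8 neuronal markers chosen were near 0 in every library, also where the neuronal-type genes were abundant. The 8 neuronal markers summed to 0.28 to 1.11 TPM in Re and 0.62 to 1.38 TPM in DMSO, with Rbfox3, Elavl4 and Dcx listed at 0 in all 6 libraries. They summed to 0.10 TPM in GBC and 0.06 TPM in its DMSO library. Some other genes known from neurons were higher in the Re table, Kif5c at 10.7 to 18.0 TPM and Map2 at 2.01 to 4.81 TPM. Prph stood at 0.98 to 3.58 TPM and Nefl at 0.83 to 1.2 TPM there. Each of these was at or under 0.05 TPM in the GBC table. The microtubule-associated genes Map6, Map1a and Dclk1 were not near 0 in either table. Map6 had 27.7 to 41.7 TPM in the Re table, and 7.26 TPM in GBC and 4.48 TPM in its DMSO library. Map1a had 6.69 to 15.1 TPM in the Re table, and 5.39 and 2.71 TPM in that pair. Dclk1 had 9.7 to 11.4 TPM in the Re table, and 7.65 and 4.73 TPM in that pair. Nefm, Nefh, Ina, Mapt and Kif5a did not pass 0.66 TPM in any library. The 4 endothelial markers summed to 0.12 to 1.13 TPM in Re and 0.21 to 0.27 TPM in DMSO, while Mcam stood at 46.7 to 69.5 TPM. They summed to 0.55 TPM in GBC and 0.15 TPM in DMSO. The 5 Schwann cell and glial markers were at 0.24 to 0.74 TPM in Re and 0.34 to 0.36 TPM in DMSO, and at 1.18 TPM in GBC and 0.80 TPM in DMSO. Markers of pericytes and smooth muscle summed to 1323 to 1524 TPM in Re and 1438 to 1601 TPM in DMSO, against 38.7 TPM in GBC and 22.7 TPM in its DMSO library. Most of the sum in the Re table was Acta2, smooth muscle actin, while Myh11 and Rgs5 of the same list did not pass 0.3 TPM in any library. Cspg4 of that list had 20.5 to 32.15 TPM in the Re table, and 27.4 TPM in GBC and 14.4 TPM in its DMSO library. Pdgfrb had 13.4 to 16.15 TPM in the Re table, and 3.26 TPM in GBC and 1.78 TPM in its DMSO library. Fibroblast markers summed to 15.8 to 22.04 TPM in Re and 16.9 to 21.8 TPM in DMSO, and to 78.7 TPM in GBC and 40.8 TPM in DMSO. Of these, Thy1 had 22.1 TPM in GBC and 23.75 TPM in its DMSO library, against 0 to 0.08 TPM in Re and 0 in DMSO. Col1a1 had 46.6 and 10.9 TPM in GBC and its DMSO library, against 12.9 to 20.0 TPM in the Re table. Pdgfra had 9.84 and 5.85 TPM in that pair, against 1.85 to 3.07 TPM in the Re table. Dcn and Lum did not pass 0.57 TPM in any library. The 6 markers of differentiated muscle summed to 24.6 to 26.1 TPM in Re and 24.6 to 35.3 TPM in DMSO, nearly all of it Acta1, with Myog at or under 0.3 TPM. For the GBC table that sum was 0.23 TPM in GBC and 0.20 TPM in DMSO.

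The other genes of these systems were taken from 10 lists by function, 133 genes in all, of which 104 were tested. With limma 0 of the 104 were called higher and 0 lower in Re, where 0% of all genes were called. A mean above that of DMSO was found in 90 of the 104, beside 9278 of all 11967 genes (77.5%). After median-of-ratios scaling 48 of the 104 had a mean above that of DMSO, or 46.2%, beside 50.1% of all genes. List medians ran from 0.05 to 0.16, beside 0.11 over all genes. The highest was that of the 14 tubulin folding factors, the cofactors and chaperonin subunits that help tubulin dimers form, where Cct5 had 517 ± 11.1 TPM in Re and 461 ± 32.5 TPM in DMSO (SD, n = 3 each) and Cct2 379 ± 9.91 TPM in Re and 338 ± 16.8 TPM in DMSO. The lowest was that of 15 microtubule-associated and plus-end proteins, where Mapre1, which tracks growing ends, had 96.6 ± 2.87 TPM in Re and 80.9 ± 9.70 TPM in DMSO, and Map7d1 had 82.7 ± 10.9 TPM in Re and 83.7 ± 3.24 TPM in DMSO.

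The remaining lists gave the following levels. Among other tubulins, with a median difference of 0.08 over 10 genes, Tuba1b had 1422 ± 16.8 TPM in Re and 1342 ± 178 TPM in DMSO, and Tuba1a 1387 ± 86.7 TPM in Re and 1321 ± 91.8 TPM in DMSO. In the GBC table Tuba1a, known from neurons and dividing cells, had 144.5 TPM in GBC and 136 TPM in DMSO. Among other intermediate filament proteins, Lmna, of the nuclear lamina, had 428 ± 3.04 TPM in Re and 397 ± 38.8 TPM in DMSO, and Lmnb1 49.4 ± 5.59 TPM in Re and 51.3 ± 2.91 TPM in DMSO. For linkers and chaperones of the filaments the median was 0.10 over 9 genes, with Hspb1, a small heat shock protein, at 279 ± 3.87 TPM in Re and 262 ± 34.5 TPM in DMSO and Plec, which links filaments to other structures, at 152 ± 41.0 TPM in Re and 140.2 ± 24.2 TPM in DMSO.

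For the motors of kinesin-1 and dynein the median was 0.13 over 10 genes, with Kif5b at 121 ± 8.62 TPM in Re and 114 ± 5.79 TPM in DMSO and Dctn2 at 91.9 ± 3.62 TPM in Re and 82.7 ± 7.15 TPM in DMSO. For other stathmins and destabilising or severing proteins it was 0.09 over 7 genes, led in level by Kif2c and Fignl1 at 49.7 ± 3.60 and 28.2 ± 1.11 TPM in Re, against 46.5 ± 2.32 and 24.9 ± 2.04 TPM in DMSO. For tubulin-modifying enzymes it was 0.06 over 13 genes, with Ttll12 and Svbp at 47.4 ± 3.41 and 26.04 ± 1.05 TPM in Re, against 44.4 ± 4.16 and 22.6 ± 3.42 TPM in DMSO. For adhesion proteins and partners of Mcam it was 0.09 over 11 genes, with Lgals1 and Msn at 5169 ± 84.9 and 371 ± 41.5 TPM in Re, against 4873 ± 445 and 367 ± 16.1 TPM in DMSO. For REST, a repressor of neuronal genes, and its corepressors it was 0.10 over 8 genes, with Hdac2 and Ehmt2 at 87.5 ± 5.56 and 67.5 ± 1.14 TPM in Re, against 82.2 ± 4.45 and 57.6 ± 7.60 TPM in DMSO. Each error is an SD over 3 libraries, and no list member passed the threshold.

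In the GBC pair 73 list genes averaged 5 TPM or more, and 5 (6.85%) were at least 1 higher in GBC and 0 at least 1 lower, beside 4.97% and 0.241% of all genes. After median-of-ratios scaling 1 of the 73, Cryab, was at least 1 higher and 0 were at least 1 lower. Of the 5 on the deposited scale, 4 were linkers and chaperones of intermediate filaments, from a list of 10 genes of which 5 reached that level. Cryab, a small heat shock protein that binds desmin, had 32.8 TPM in GBC and 11.4 TPM in DMSO, Plec 35.4 TPM in GBC and 16.65 TPM in DMSO, Flnc 21.8 TPM in GBC and 9.44 TPM in DMSO, and Dst 33.0 TPM in GBC and 14.5 TPM in DMSO. The other was Ttll4, a tubulin polyglutamylase, with 13.1 TPM in GBC and 5.03 TPM in DMSO. The median of the linkers was 1.13 over 5 genes, beside 0.31 over all genes. That of other tubulins was 0.20 over 8 genes and that of folding factors 0.28 over 14. Genes with a transcript of at least 8000 bases had a median of 0.62 in this pair. The part of transcript length in the linker values was not tested. With 1 library per group these values describe 2 libraries.

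The contrast between the tables was sought among the other genes of the lists. Of the 85 list genes with at least 10 TPM in all 6 libraries of the Re table, 4 (4.71%) were under 1 TPM in both GBC and DMSO of the other table, beside 2.15% of all genes. They were Hspb1, at 225 to 293 TPM in the Re table and 0.18 TPM in GBC and 0 in DMSO, the adhesion gene Cadm1, at 35.5 to 44.6 TPM and listed at 0 in both, the neuronal kinesin gene Kif5c, at 10.7 to 18.0 TPM and 0.01 TPM in GBC and 0 in DMSO, and Iffo2, at 14.8 to 19.7 TPM and 0.99 TPM in GBC and 0.87 TPM in DMSO.

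Genes with the pattern most like that of the 3 most abundant members were sought over the 8 libraries, by the smallest mean absolute difference of log2(TPM + 1) after each gene was centred on its own mean. Among 6088 named genes averaging 5 TPM or more in each table, those nearest to Vim were Fhl2, Chaf1b and Poldip2, at 0.038, 0.040 and 0.044. Those nearest to Stmn1 were Marcksl1, Pcdhgc3 and Vasp, at 0.059, 0.062 and 0.070. For Nes the nearest was Acta2 at 0.099, with 1397 TPM in Re and 1493 TPM in DMSO at the mean, and 7.94 TPM in GBC and 6.49 TPM in DMSO of the other table, and the next, Tmsb4x and Ankrd1, were far off at 0.72 and 0.76. With the minimum asked of the Re table only, a choice made after the values were seen, Crip2 and Myl9 came before Acta2 at 0.082 and 0.093. Crip2 had 189 TPM in Re and 179 TPM in DMSO at the mean, and 0.19 TPM in GBC and 0.34 TPM in DMSO of the other table. The distances are set mostly by the gap between the tables, which the libraries of each table share.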

How the data were processed

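RNA sequencing of 8 mouse libraries labelled C2C12 was deposited by the authors as log2(TPM + 1) per Ensembl gene in 2 tables. STAR and RSEM (versions not given) and the builds GRCh38 and GRCm39 were used by the authors, per the submitters' processing notes, with no role or setting stated. TPM was recovered as 2 to the power of the value minus 1 and rounded to 0.01, from which it differed by at most 2.0e-04. TPM keeps no depth, so no count model or counting interval was used.

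Re and DMSO (3 libraries each) were compared with limma 3.58.1 in R 4.3.3 (lmFit, then eBayes with a mean-variance trend) on the deposited log2 values (pseudocount 1), over genes averaging 1 TPM or more, with Benjamini-Hochberg adjustment at 0.05. The fit was tested on simulated data. GBC and DMSO (1 library each) were compared by a difference of at least 1 among genes averaging 5 TPM or more. Replicates may be technical, so intervals measure only the spread between these libraries. Promoters came from RefSeq (GRCm38.p6), and transcripts, used for lengths and shared 50-base stretches, from GENCODE M21 (GRCm38), another build than GRCm39, so no other coordinates are given. Python 3.11.15, numpy 2.4.6, pandas 2.3.3, biopython 1.88 and matplotlib 3.10.9 were used.

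The members and lists were chosen with earlier results of these data known. All members are named. From each list the rule names the 2 genes highest in the Re table and any gene called or past the size rule, and the nearest 3 genes to each of the 3 most abundant members. The scaled counts over the lists were chosen after seeing the data. Alternatives were pseudocounts of 0.1 and 0.5, other filters, median-of-ratios scaling, mitochondrially encoded genes left out with rescaling to 1000000 TPM, limma with robust variances or no trend, a replicate block, and fits without each library in turn.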

Additional observations from a re-analysis of the deposited data

How the results depend on the processing

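No list gene was called in Re under any alternative run. Of the list genes, 48 of 104 had a mean above DMSO after median-of-ratios scaling, in place of 90, and 1 of 73 was past the GBC difference of 1, in place of 5. The number of genes called over all genes was 0 in each alternative with 6 libraries and 0 to 7 when 1 library was left out. Leaving out an Re library gave 3, 1 and 7 for replicates 1, 2 and 3, and leaving out a DMSO library gave 4, 6 and 0. The members' median difference between Re and DMSO, 0.07, ran from 0.01 to 0.14 without 1 library, and was -0.04 after median-of-ratios scaling and -0.02 without mitochondrially encoded genes. With a mean above DMSO there were 9 members as deposited, 3 after either of these, 5 without DMSO replicate 2 and 6 without Re replicate 3. Between libraries with the same replicate number in Re and DMSO, deviations across genes had r of 0.163, 0.077 and 0.017. Between libraries with different numbers r ran from -0.172 to 0.094, so these values do not show that the numbers pair the libraries. With the number as a replicate block 0 genes were called, and the unadjusted count was 810 in place of 745.

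In the GBC pair 346 genes were past a difference of 1, 113 after median-of-ratios scaling, 522 over genes averaging 1 TPM or more and 1464 with a difference of at least 0.58. Map1b was past 1 in these but for the scaling, where it differed by 0.76. The median difference over all 10 members, 0.07, was 0.19 with a pseudocount of 0.1, where the low members weigh more. The depth of the libraries is unknown, so how far values near 0 TPM could be resolved is not known either.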
